A study of Homo sapiens with 4 samples.

Results

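The AP-1 genes described here are FOS, FOSB, FOSL1, FOSL2, JUN, JUNB, JUND and ATF3. They were chosen by gene symbol, as every probe set that the annotation of the array assigns to 1 of these symbols, and they make up 8 of the 19775 genes and 20 of the 54675 probe sets measured. The choice was made with earlier results of these data known. The cells were U937, an established human line of myeloid, monocyte-like cells that the labels call lymphoma. There were 4 groups of 1 array each: 0.05% Sonazoid together with 1 min of ultrasound at 0.3 W/cm2 (the combination), the same ultrasound only, 0.05% Sonazoid only, and untreated control cells. Sonazoid is an ultrasound contrast agent made of gas microbubbles. The 3 treated groups were kept for 3 h at 37°C before RNA was taken, and for the control cells the labels give no such time. Expression was read on Affymetrix Human Genome U133 Plus 2.0 arrays, in which a probe set is a group of short probes against the 3' part of a transcript.

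AP-1 is a transcription factor built as a dimer. A JUN protein pairs through its leucine zipper with a FOS protein, with another JUN protein or with ATF3, and the pair binds a short palindrome in promoters and enhancers. FOS needs such a partner to bind. FOS, FOSB, JUN and JUNB are immediate early genes, transcribed within minutes of a growth signal or a stress through the ERK, p38 and JNK kinases, and their mRNAs decay quickly. FOSL1 and FOSL2 are usually induced later and lack the strong activation domain of FOS, JUND is made at a steady level in most cells, and ATF3 is a stress-induced member that often represses. In myeloid cells AP-1 is known for its part in monocyte differentiation and in the inflammatory response.

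The promoters of these genes carry sites for the CREB and ATF family, and since the genes are compared with each other below, the stretch most like the cAMP response element (TGACGTCA) is shown for each. Of the 8 genes 7 are in the RefSeq promoter table of build GRCh38.p14, without FOSL1, and the 250 bases upstream of the start were searched on both strands. Capitals mark the 8 bases nearest to that element among those that begin with TGAC or end with GTCA. The outer 20 bases at each end of the window were left out of this choice, as they serve as flanks. Each line is on the strand of its gene.
FOS, chr14:75278744-75278791, plus strand: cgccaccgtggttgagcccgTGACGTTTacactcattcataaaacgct
FOSB, chr19:45467916-45467963, plus strand: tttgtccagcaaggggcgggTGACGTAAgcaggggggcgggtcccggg
FOSL2, chr2:28392772-28392819, plus strand: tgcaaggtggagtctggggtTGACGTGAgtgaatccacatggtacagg
JUN, chr1:58784087-58784134, minus strand: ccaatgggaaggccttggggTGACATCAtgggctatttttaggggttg
JUNB, chr19:12791329-12791376, plus strand: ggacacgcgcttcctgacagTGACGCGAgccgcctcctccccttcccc
JUND, chr19:18281795-18281842, minus strand: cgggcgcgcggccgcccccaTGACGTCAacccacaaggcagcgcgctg
ATF3, chr1:212565264-212565311, plus strand: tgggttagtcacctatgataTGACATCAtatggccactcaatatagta

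JUND alone held the full element TGACGTCA, found in 1.65% of the 35116 promoters of the table. FOSB, FOSL2, JUN and ATF3 differed from it at 1 base and FOS and JUNB at 2 bases. How many of all promoters hold a stretch within 1 or 2 bases of the element was not counted. These distances therefore have no background. JUN and ATF3 shared the same 8 bases, a match to TGACNTCA, which 6.87% of all promoters held and which includes the full element. For ATF3 the stretch shown is the nearer match among its 2 starts in the table. At the other start the nearest stretch was TCATGTCA, which differs from the element at 2 bases. The core TGACG, a part of the full element, was found for 6 of the 7 genes, all but ATF3, against 21.2% of all promoters. The AP-1 site proper (TGANTCA) was in none of the 8 windows of these 7 genes (ATF3 has 2 starts in the table), against 6.57% of all promoters, and the CArG box bound by SRF was in none either, against 1.16%. JUN also held a MEF2 box (0.515% of all promoters), which lies just after its capitals. These are matches of letters in a short window. Bases farther upstream were not searched, so a site absent here, such as the CArG box, may still lie outside the window.

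Signals below are the deposited intensities after each array was scaled to a common trimmed mean, and a signal at or under the floor of 23.8, the median of all scaled values, was treated as not measured. A log2 difference of 1 is 2-fold, the size at which a gene was counted as higher or lower. Where 1 of the arrays compared was at the floor, the difference is given as "at least". With 1 array per group there is no replicate check, so no test was made, and in place of an error the range that holds the middle of all measured genes is given. From the 5th to the 95th percentile that range of log2 differences was -0.56 to 0.63 for the combination over control, -0.53 to 0.67 for ultrasound only over control, -0.54 to 0.52 for Sonazoid only over control, -0.63 to 0.55 for the combination over ultrasound only and -0.55 to 0.63 for the combination over Sonazoid only. The labelled cell type matched its markers in part: LYZ, ELANE, AZU1 and ITGB2 lay between 2698 and 10586 on the 4 arrays, while MPO was above the floor on 1 array and FCGR1A on none. Of the 12 myeloid markers present, 11 were above the floor on at least 1 array, and their summed signal was 24790 in the combination, 27967 with ultrasound only, 22109 with Sonazoid only and 24635 in control. Markers of T and NK cells summed to between 85.4 and 150.04 and of B cells to between 179.6 and 212. Those of erythroid cells summed to between 53.7 and 87.6 and of epithelial cells to between 59.4 and 109.9. CD3D, CD8A, EPCAM and CDH1 were under the floor on all arrays. In the same lists NCAM1 (43.3 to 66.9), CD79A (72.5 to 107.5), PAX5 (85.1 to 101.8) and HBB (34.9 to 63.4) were above it on all 4 arrays, and KRT8 on 3. Markers of fibroblasts and endothelium summed to between 815 and 946, of which PECAM1 made up 648 to 810 and COL1A1 81.2 to 130.8. The part of any of these sums in the values below was not tested. In these bulk samples, fewer cells of a type and less RNA per cell cannot be told apart.

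Of the 8 AP-1 genes 4 were at least 2-fold higher in the combination than in control (FOSB, FOS, JUN and ATF3), where 1.39% of all measured genes were. With only probe sets that carry no suffix the count was 2 of 6 measured genes (FOS and FOSB). JUND has no such probe set, and that of ATF3 was under the floor on both arrays. The 1.39% is the share by brightest probe sets. As the mean of its probe sets ATF3 was at 0.51, short of 2-fold. That mean takes in 1554420_at, under the floor on both arrays, as no difference. ATF3 was at 1.26 by 202672_s_at and at 0.28 by 1554980_a_at. With ultrasound only, 4 were at least 2-fold higher than control (FOSB, FOS, JUN and JUNB), against 1.65% of all genes, again by brightest probe sets. By probe sets that carry no suffix this count was 3 of 7 measured genes (FOS, FOSB and JUNB). It was also 3 with the values as deposited and with a pseudocount in place of the floor, where JUNB fell short. With Sonazoid only, none of the 7 measured AP-1 genes was 2-fold higher or lower than control, where 0.652% of genes were higher and 0.715% lower. All 8 lay above control in the combination, with a median log2 difference of 1.00 (all genes 0.00), and all 8 with ultrasound only, with a median of 0.97 (all genes 0.02). With Sonazoid only 2 lay above and 5 below, with a median of -0.13 (all genes 0.00). The comparisons with control share the control array, so their values are not independent. As the genes were chosen with earlier results of these data known, the shares of all genes are a background and not a test. The combination over Sonazoid only, which shares no array with ultrasound only over control, had FOSB, FOS, ATF3 and JUN at least 2-fold higher, against 1.46% of all genes, and a median of 1.09 over the 8 genes. There, too, the count was 2 of 6 measured genes (FOS and FOSB) with only probe sets that carry no suffix. The 1.46% is likewise the share by brightest probe sets. ATF3 was at 0.72 as the mean of its probe sets, where 1554420_at was again under the floor on both arrays. It was at 2.11 by 202672_s_at and at 0.06 by 1554980_a_at.

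**Figure D1:**
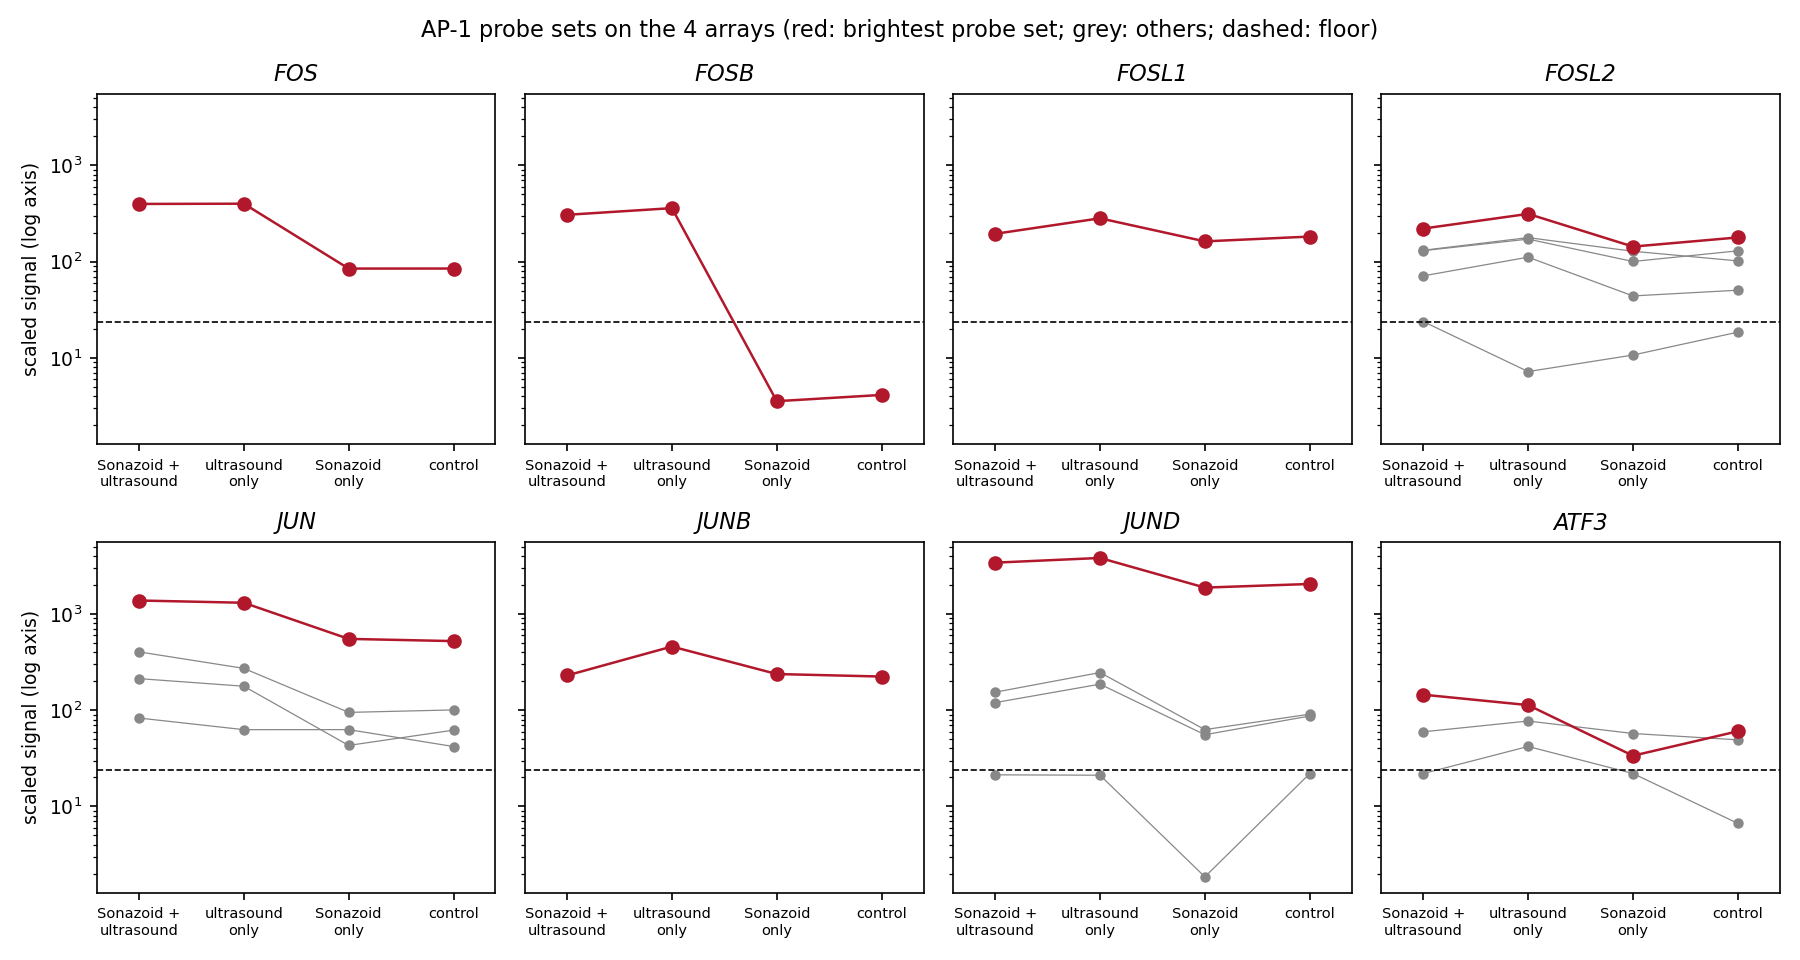
Scaled signal (log axis) of the 20 AP-1 probe sets on the 4 arrays, in 1 panel per gene; a line joins the values of 1 probe set, the brightest of each gene is red, and the dashed line is the floor of 23.8. FOS, FOSB and 3 of the 4 JUN probe sets stand apart between the arrays with and without ultrasound, and JUNB is high on the array of ultrasound only.

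FOS, the partner of JUN in the classical AP-1 dimer, had signals of 398 in the combination, 400.3 with ultrasound only, 84.8 with Sonazoid only and 84.9 in control. Both arrays with ultrasound were at nearly 1 level and both arrays without it at another. The log2 difference from control was 2.23 in the combination and 2.24 with ultrasound only, and that of the combination over Sonazoid only was also 2.23. Ranked from the highest difference, over genes measured above the floor on each of the arrays compared, FOS was at rank 9 of 11149 in the combination over control and at rank 9 of 11227 in ultrasound only over control. Its 1 probe set carries no suffix that marks shared sequence.

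FOSB, a close relative of FOS whose short splice form builds up in neurons under repeated stimulation, had signals of 307 in the combination and 360.0 with ultrasound only. On the arrays without ultrasound it was far below the floor, at 3.6 with Sonazoid only and 4.1 in control. It was therefore at least 12.9-fold higher than control in the combination and at least 15.1-fold higher with ultrasound only, the farthest of the 8 genes in both. Between the arrays with ultrasound the log2 difference, combination over ultrasound only, was -0.23.

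FOSL1, which encodes FRA1, had signals of 195 in the combination, 282 with ultrasound only, 162.5 with Sonazoid only and 182 in control. The array of ultrasound only was the highest of the 4, and the combination was close to control. The log2 difference from control was 0.63 with ultrasound only and 0.09 in the combination, the first near the upper end and the second near the middle of the range of all genes.

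FOSL2, which encodes FRA2, had 5 probe sets, of which 4 were above the floor on all arrays. The brightest, 225262_at, had signals of 221 in the combination, 314 with ultrasound only, 143 with Sonazoid only and 179 in control. Ultrasound only was the highest array for each of the 4 probe sets, with log2 differences from control of 0.40, 0.80, 0.81 and 1.14, and those of the combination were 0.01, 0.37, 0.31 and 0.50 in the same order. The 5th, 218881_s_at, was above the floor only in the combination, at 23.9, hardly over it.

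JUN, the central subunit that pairs with all the others, had 4 probe sets. The brightest, 201464_x_at, had signals of 1378 in the combination, 1306 with ultrasound only, 550.4 with Sonazoid only and 522 in control. Probe set 201466_s_at had 403, 272, 94.9 and 100.6, and 201465_s_at had 213, 177, 43.0 and 62.1, in the order of combination, ultrasound only, Sonazoid only and control. For these 3 probe sets both arrays with ultrasound lay above both without it, and the log2 difference from control was 1.40, 2.00 and 1.78 in the combination and 1.32, 1.43 and 1.52 with ultrasound only.

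The fourth JUN probe set, 213281_at, differed from the rest. It was at 82.9 in the combination, 62.8 with ultrasound only, 62.8 with Sonazoid only and 41.9 in control, so the array of Sonazoid only matched that of ultrasound only, and its log2 difference was 0.98 in the combination and 0.58 with ultrasound only. It is the 1 JUN probe set with no suffix; the suffixes _s and _x mark probes that may match more than 1 transcript. With it in place of the brightest, JUN is under 2-fold in every comparison.

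JUNB, which often holds JUN in check, had signals of 230 in the combination, 458 with ultrasound only, 237 with Sonazoid only and 224 in control. Ultrasound only stood apart and the other 3 arrays lay together. The log2 difference from control was 1.04 with ultrasound only and 0.04 in the combination, and the combination over ultrasound only was -0.997, just inside 2-fold. The gene has 1 probe set, with no suffix. The call at 2-fold for ultrasound only over control ended with the values as deposited (0.99) and with a pseudocount in place of the floor (0.99).

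JUND, the subunit kept at a steady level in most cells, had 4 probe sets, of which 1 was under the floor throughout. The brightest, 203752_s_at, had signals of 3408 in the combination, 3815 with ultrasound only, 1877 with Sonazoid only and 2047 in control. Both arrays with ultrasound lay above both without, at log2 differences from control of 0.74 in the combination and 0.90 with ultrasound only, short of 2-fold but above the 95th percentile of all genes. The dimmer 203751_x_at and 214326_x_at had log2 differences of 1.44 and 1.099 with ultrasound only and of 0.76 and 0.46 in the combination.

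ATF3, the stress-induced member, was dim and its probe sets differed. The brightest, 202672_s_at, had signals of 145 in the combination, 113 with ultrasound only, 33.7 with Sonazoid only and 60.4 in control. Both arrays with ultrasound were the higher pair, and the array of Sonazoid only was the lowest. The log2 difference from control was 1.26 in the combination, 0.90 with ultrasound only and -0.84 with Sonazoid only. The combination over Sonazoid only was 2.11, at rank 12 of 11146 genes, while ultrasound only over control was at rank 188 of 11227.

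A second ATF3 probe set, 1554980_a_at, was at 59.6 in the combination, 77.2 with ultrasound only, 57.2 with Sonazoid only and 49.2 in control. Its highest array was ultrasound only, and its log2 differences from control were 0.28 in the combination and 0.65 with ultrasound only. The third, 1554420_at, was above the floor with ultrasound only, at 42.0, and under it on the other 3 arrays. The 3 probe sets therefore had in common that ultrasound only was above control, and differed on where the combination and Sonazoid only stood.

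**Figure D2:**
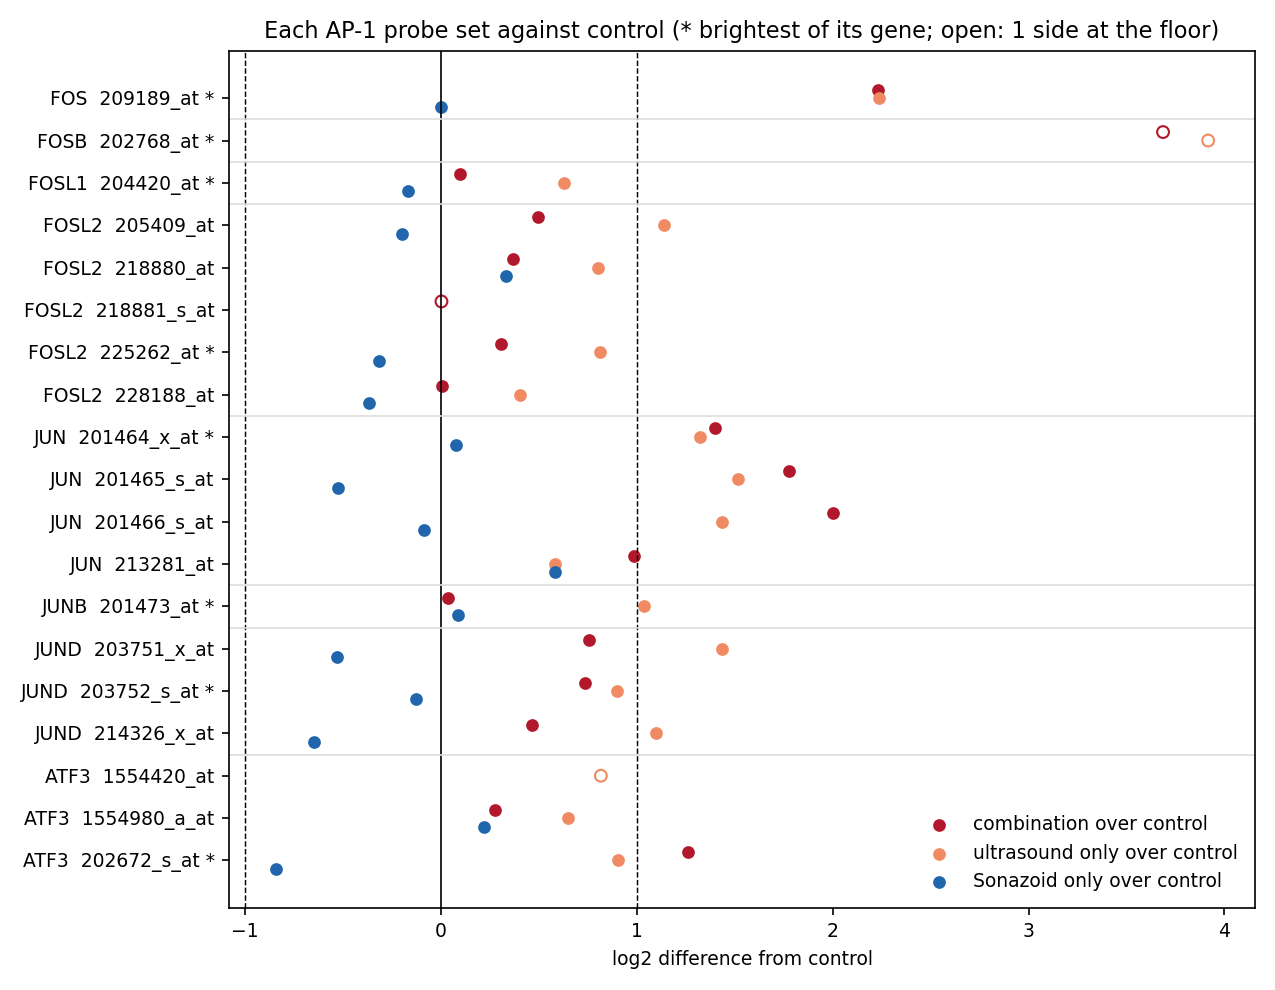
Log2 difference from control of the 19 AP-1 probe sets above the floor on at least 1 array, in the combination (dark red), with ultrasound only (orange) and with Sonazoid only (blue); a star marks the brightest probe set of a gene and an open circle a value with 1 side at the floor. The 4 FOSL2 probe sets above the floor on all arrays have ultrasound only highest, then the combination, then Sonazoid only, while the ATF3 probe sets differ in their order.

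By probe set, 6 of the 18 AP-1 probe sets measured in the combination over control were at least 2-fold higher, against 1.42% of all probe sets, and 9 of 18 in ultrasound only over control, against 1.59%. In the combination over Sonazoid only 8 of 18 were, against 1.54%. The probe sets counted with ultrasound only were those of FOS and FOSB, 3 of JUN, 1 of JUNB, 2 of JUND and 1 of FOSL2. Probe sets of 1 gene share their transcript and are not independent.

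The 2 arrays with ultrasound were also set against the 2 without it. For 7 of the 8 AP-1 genes, all but JUNB, both arrays with ultrasound lay above both without, against 18.8% of all genes. For 3 of them, FOS, FOSB and JUN, the lower array with ultrasound was at least 2-fold above the higher array without, against 0.315% of all genes. By probe set these counts were 15 and 5 of 19 measured, against 17.3% and 0.298% of all probe sets. The median difference of the array means was 1.102 (log2) over the 8 genes and 0.01 over all genes. With only probe sets that carry no suffix, 4 of 7 measured genes (FOS, FOSB, FOSL1 and FOSL2) were without overlap. With the values as deposited JUNB was too, making 8 of 8. JUNB was then at 0.03 in the combination over Sonazoid only, where the median of all genes was 0.08. The 18.8% is the share for scaled arrays and brightest probe sets. The groups within each pair differ in Sonazoid and are not replicates.

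**Figure D3:**
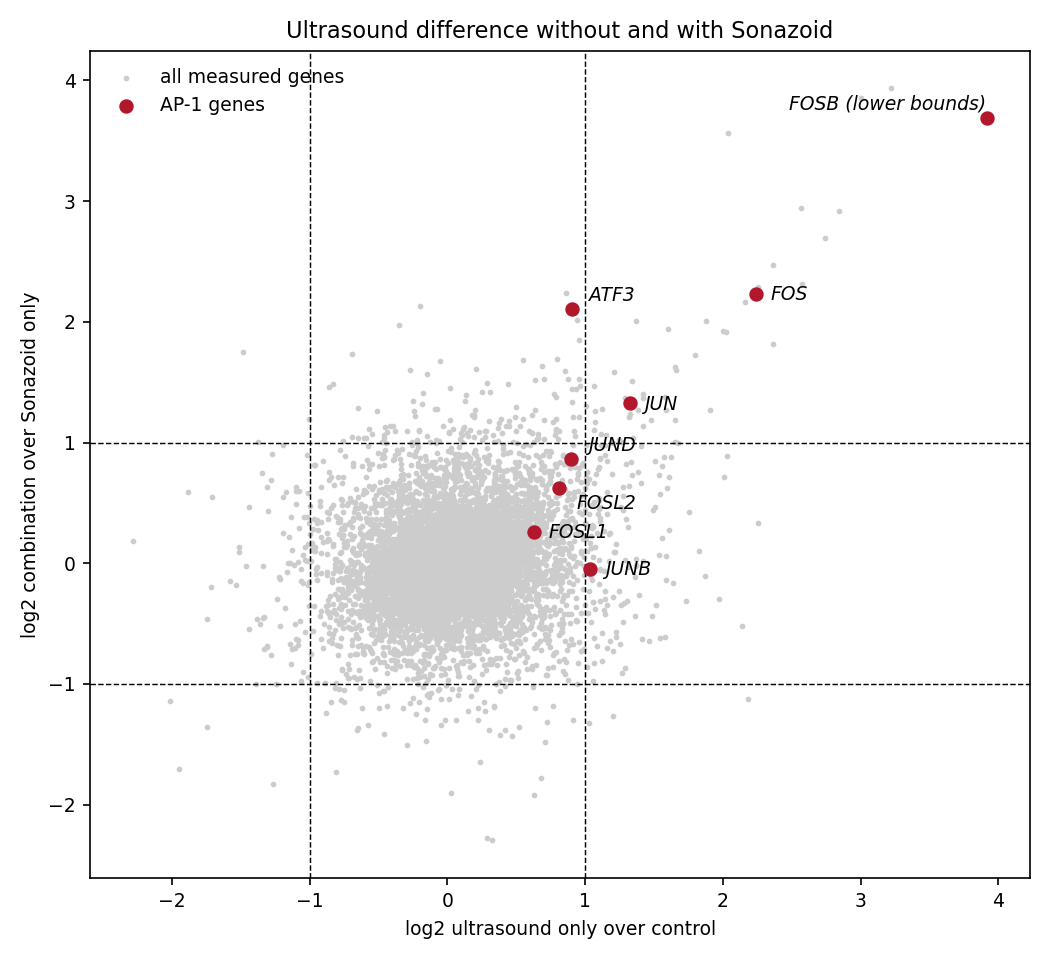
Log2 difference of ultrasound only over control (x axis) and of the combination over Sonazoid only (y axis) for all measured genes (grey) and the 8 AP-1 genes (red), which share no array between the axes; dashed lines mark 2-fold, and FOSB is a lower bound on both axes. FOS and JUN lie near equal values on both axes, ATF3 lies higher on the y axis (2.11 and 0.90), and JUNB lies at 1.04 on the x axis and -0.05 on the y axis.

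Added Sonazoid went with unlike values among the subunits in cells given ultrasound. In the combination over ultrasound only, none of the 8 AP-1 genes was 2-fold higher or lower, where 0.7% of all genes were higher and 1.16% lower. FOS (-0.01) and JUN (0.08) were near 0, JUND was at -0.16, FOSL2 at -0.51, FOSL1 at -0.54 and JUNB at -0.997 on the log2 scale. ATF3 was at 0.36 by its brightest probe set, -0.37 by 1554980_a_at and -0.82 or lower by 1554420_at, so its direction is not settled. The mean of its probe sets was -0.28, with 1554420_at set to the floor in the combination. The 4 FOSL2 probe sets above the floor on all arrays ran from -0.65 to -0.40, those of JUN from 0.08 to 0.57 and those of JUND from -0.68 to -0.16, and 218881_s_at of FOSL2, at the edge of the floor, was near 0. With the values as deposited the median of all genes in this comparison was 0.19. JUNB was outside the range from the 5th to the 95th percentile of all genes (-0.63 to 0.55), and FOSL1 and FOSL2 were inside it.

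The departure from additivity is the log2 difference of the combination over Sonazoid only minus that of ultrasound only over control, and was taken for the 7 AP-1 genes above the floor on all 4 arrays. By the brightest probe set, FOS (-0.01), JUN (0.00) and JUND (-0.04) were close to 0, FOSL2 was at -0.19 and FOSL1 at -0.37. For JUN the other probe sets differed, at 0.79 (201465_s_at), 0.65 (201466_s_at) and -0.18 (213281_at), the first 2 above the 95th percentile of all genes (0.61), and the mean of its probe sets was 0.32. The other FOSL2 probe sets ran from -0.77 to -0.03, with the 5th percentile of all genes at -0.65, and those of JUND from -0.14 to 0.01. JUNB was at -1.08, where 1.48% of all genes departed downward by at least 1, and 0.364% of genes with a mean signal of 100 or more did; with the values as deposited it was at -0.96, short of 1. ATF3 was at 1.202, where 1.4% of all genes departed upward by at least 1, and 5.83% of genes with a mean signal under 100, the band to which ATF3 belongs. The departure of ATF3 was -0.59 by 1554980_a_at, -0.068 when its probe sets were averaged and 0.94 with a pseudocount in place of the floor. The average takes in 1554420_at, which was above the floor with ultrasound only and was set to the floor on the other arrays. The value of -0.068 therefore rests in part on signals treated elsewhere as not measured.

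The nearest patterns were taken over 10621 genes above the floor on all arrays, as the distance over the 3 log2 differences from control. FOS was nearest to FCAR, the myeloid receptor for IgA (distance 0.19), then EMP1, a tetraspan membrane protein (0.32), and PPP1R15A, which directs a phosphatase to eIF2 alpha (0.43). JUN was nearest to CRIP1 (0.13), AHR, the aryl hydrocarbon receptor (0.17), and RGCC (0.17). JUNB was nearest to STARD5 (0.11), PLAG1 (0.18) and SLC22A23 (0.20), and JUND to MOK (0.11), MIR570HG (0.13) and PRKCSH (0.13). ATF3 had its nearest gene at 0.28, the chemokine CXCL2, and the next, CDKN1A and SPOCK2, at 0.61 and 0.62. FOSB, under the floor on 2 arrays, was not ranked. FOSL1 was nearest to LEMD2 (0.066), ZNF432 (0.082) and FAM111A-DT (0.086), and FOSL2 to RARA, a retinoic acid receptor (0.11), ATOSB (0.12) and SH3GLB2 (0.13).

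Related genes were read from 5 lists, written with earlier results of these data known. Among other bZIP proteins that can pair with AP-1 subunits, 10 of the 12 on the table were above the floor, and none was 2-fold higher or lower in any of the 5 comparisons of 2 arrays. For 7 of the 10 both arrays with ultrasound lay above both without, against 18.8% of all genes, with a list median of 0.17 (all genes 0.01). MAFF, a small MAF protein, had signals of 202 in the combination, 172 with ultrasound only, 143 with Sonazoid only and 108 in control. ATF4, which drives the response to eIF2 alpha phosphorylation, had 5825, 5075, 4013 and 3916 in that order. DDIT3, which encodes CHOP, was between 190.3 and 269 on the 4 arrays and BATF, a partner of JUN in lymphoid and myeloid cells, between 1213 and 1646. By brightest probe sets, no gene of this list reached the differences of FOS or JUN in ultrasound only over control or in the combination over Sonazoid only. The JUN probe set with no suffix was lower, at 0.58 and 0.40, and MAFF was above it in both, at 0.67 and 0.50. ATF4 (0.54) and BATF (0.44) were above it in the combination over Sonazoid only.

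Among MAP kinases and the kinases above them, 15 were measured, and at most 1 was 2-fold higher and at most 1 lower in each of the 5 comparisons of 2 arrays. For 2 of the 15, MAPK11 and MAPK13, both arrays with ultrasound lay above both without, against 18.8% of all genes, and the list median was 0.17. MAPK11, the beta form of p38, had 76.4 in the combination, 68.6 with ultrasound only, a signal under the floor with Sonazoid only and 46.9 in control. MAPK13, the delta form, was between 26.7 and 45.4, MAP3K5, also called ASK1, between 567 and 886, and MAP3K8, also called TPL2, was at 57.3 in the combination, 37.1 with ultrasound only, 51.5 with Sonazoid only and under the floor in control. Of the JNK genes, MAPK8 (between 518 and 541) and MAPK9 (between 628 and 637), named after their values were seen, covered these narrow ranges on the 4 arrays. MAPK10, also a JNK gene and named in the same way, was dimmer. It was at 58.6 in the combination, 51.3 with ultrasound only, 51.8 with Sonazoid only and 41.7 in control. Kinase activity was not measured.

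Of 14 factors and kinases that act at the FOS and JUN promoters, 3 lay higher and 3 lower without overlap on the arrays with ultrasound, against 18.8% and 17.8% of all genes, and the list median was -0.04. RPS6KA5 and RPS6KA4, the kinases MSK1 and MSK2 that phosphorylate CREB and histone H3, were the most different on the higher side, RPS6KA5 at 496 in the combination, 430 with ultrasound only, 347 with Sonazoid only and 326 in control. RPS6KA4 was at 205, 217, 120.3 and 160.6 in that order. ELK4, a partner of SRF, was at 488, 405.5, 556.5 and 523, and RPS6KA3, the kinase RSK2, at 1094, 1029, 1281 and 1203. With the values as deposited 2 of the list were higher and 0 lower without overlap.

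Genes known as AP-1 targets were on the table for 23 symbols, of which 18 were above the floor, and 13 of them were higher and 1 lower without overlap, against 18.8% and 17.8% of all genes (list median 0.19). The 4 with the lower ultrasound array at least 2-fold above the higher array without, as 0.315% of all genes had, were EMP1, DUSP1, ANXA1 and VIM; earlier values of the first 3 were known when the list was written. VIM, the intermediate filament vimentin, had signals of 4939 in the combination, 5915 with ultrasound only, 1899 with Sonazoid only and 1980.3 in control. DUSP1, which encodes a phosphatase of p38 and JNK, had 295, 296, 73.2 and 80.8 in that order, so the arrays with ultrasound lay close together and apart from those without. MMP1, MMP3, MMP10, IL6 and LIF, named after their values were seen, were under the floor on all 4 arrays.

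Other immediate early genes were the list nearest to the AP-1 genes. Of 16 above the floor 11 were higher and 1 lower without overlap, against 18.8% and 17.8% of all genes, and the list median was 0.87. KLF6, a zinc finger factor, had signals of 2968 in the combination, 2852 with ultrasound only, 394 with Sonazoid only and 397 in control. KLF2 and KLF4, of the same family, and MCL1, a short-lived survival protein, were the others farthest from 0. KLF4 was at 838.5, 636, 253 and 183 and MCL1 at 4762.5, 5199, 2057 and 2085 in the same order, and KLF2 at 123.8, 114.0 and 25.3 with control under the floor. The 1 lower gene was MYC, at 5243, 5728, 7287 and 6836 in the same order. EGR1, a classical SRF target, was between 277 and 404 with overlap between the groups; MYC and EGR1 were named after their values were seen.

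**Figure D4:**
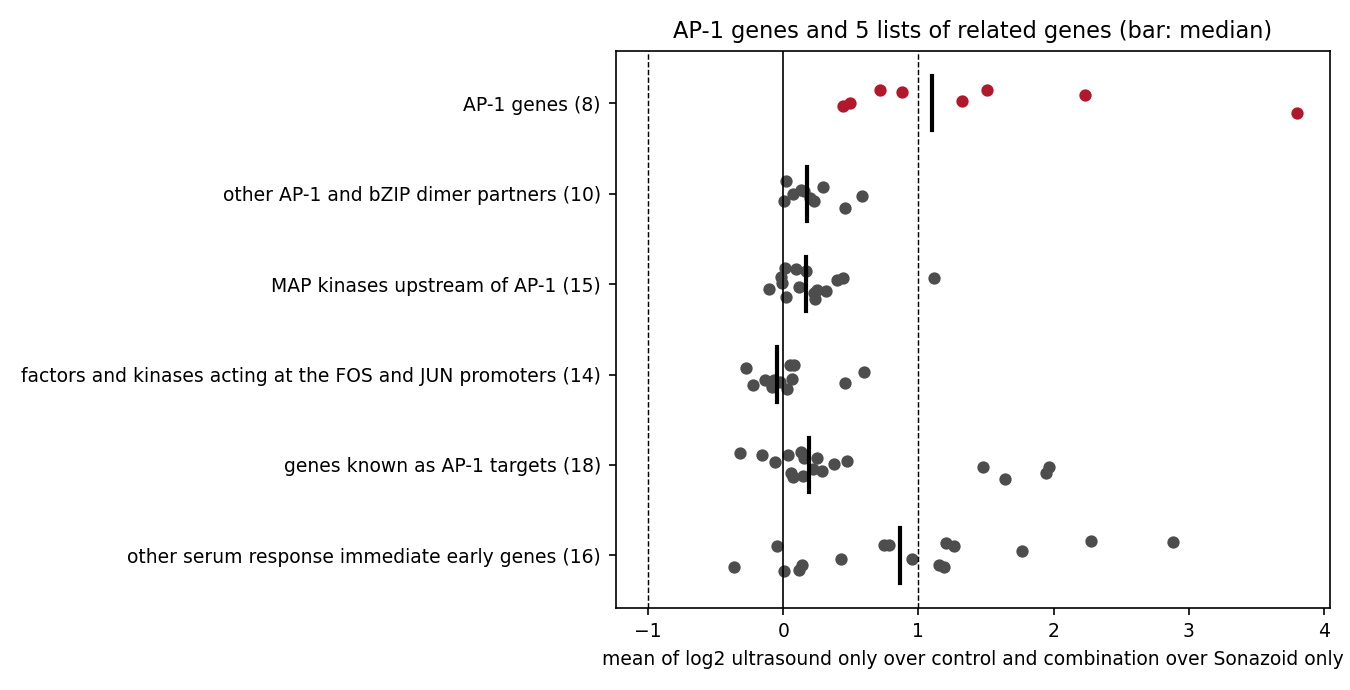
Mean of the log2 differences of ultrasound only over control and of the combination over Sonazoid only, for the 8 AP-1 genes (red) and the genes above the floor in 5 lists of related genes (grey), with the median as a bar; the numbers of genes are in parentheses, and values with a side at the floor are bounds. The medians are 1.102 for the AP-1 genes and 0.87 for other immediate early genes, and between -0.04 and 0.19 for the rest.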

How the data were processed

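The table deposited by the authors gives a linear intensity for each probe set on each array, from total RNA labelled with a one-cycle 3' amplification kit, per the labels' protocols. How the probes were summarised and scaled, and any detection calls, is not stated in those labels. Trimmed means of the arrays (2% removed at each end) differed 1.16-fold, over the 1.1-fold set as the limit, so each array was scaled by 1 factor (0.923 for the combination, 1.07 for ultrasound only, 0.977 for Sonazoid only and 1.04 for control). The median of all scaled values (23.8) served as a floor, and log2 was taken. Of the probe sets, 41097 had 1 gene symbol, 1801 several and 11777 none; symbols were updated through Entrez identifiers, and 62 control probe sets were left out. A gene was represented by its brightest probe set; 13965 of 19775 genes were above the floor on at least 1 array. Python 3.11.15, numpy 2.4.6 and pandas 2.3.3 were used, and scaling and calls were tested on simulated data. Precision is limited by the number of arrays, 1 in each group, and no test or p-value is given. The AP-1 genes and the lists were chosen with earlier results of these data known. All AP-1 genes are named; in each list, up to 4 genes farthest from 0 in the mean of both ultrasound differences, and for each member above the floor on all arrays the 3 nearest patterns, are named, and any further name, apart from cell type markers, is marked in the text. The 6 alternatives were the values as deposited, quantile normalisation, a floor at the 75th percentile (150.8), a pseudocount of 16 in place of the floor, probe sets without a suffix only, and the mean of all probe sets above the floor on at least 1 array. In that mean a signal under the floor was set to the floor. Promoter sequences are those of RefSeq.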

Additional observations from a re-analysis of the deposited data

How the results depend on the processing

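No paired analysis was possible because each group holds 1 array. For the 8 AP-1 genes, 303 single values were recomputed under the 6 alternatives. Of these 287 kept their side of 2-fold, 12 moved under it and 3 (all of JUND, as the mean of its probe sets) moved over it. FOS, FOSB, FOSL1 and JUNB have 1 probe set each, with no suffix. The 2 alternatives that change the probe set therefore returned the same values for them, and these are among the 287. For FOSL2, whose brightest probe set has no suffix, the alternative without suffixes did so too. Of 101 recomputed values for differences of at least 2-fold, 100 kept their direction. The 1 that did not was the departure of ATF3 from additivity, at -0.068 as the mean of its probe sets against 1.202. That mean takes in 1554420_at, set to the floor on the arrays where it was not measured. The change of sign therefore rests in part on floor values. FOS and FOSB stayed above 2-fold in the combination over control under all 6 alternatives, 2 of which could not change them. Their log2 values ran from 1.40 to 2.40 for FOS and from 1.03 to 4.004 for FOSB, lowest with the floor at the 75th percentile. The control signals of both genes were under that floor, so 1.40 and 1.03 are lower bounds. For FOSB each value from a setting with a floor is a lower bound, and 4.004 came with the pseudocount. Probe sets that carry no suffix leave out the brightest ones of JUN, JUND and ATF3. With them 2 of 6 measured genes were at 2-fold in the combination over control and 2 of 6 in the combination over Sonazoid only. By brightest probe sets it was 4 of 8 in each. The other counts of genes at 2-fold stayed within 1.5 times. With the values as deposited the median of all genes in the combination over control was 0.16 (log2), and that of the AP-1 genes 1.17. Dim signals limit ATF3, the FOSB levels without ultrasound and the second probe sets of several genes.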
